A study of Mus musculus with 6 samples.

Results

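The potassium channel genes of cultured muscle satellite cells (SCs) were examined in RNA-seq libraries of NF-YAcKO and NF-YAfl/fl mice. Members were the genes whose symbol is Kcn, followed by letters and then a number, with more than 10 expected counts in at least 2 of the 6 libraries. Of 92 such symbols among 35976 genes, 54 passed this filter and 38 did not, and 17348 genes of any kind passed it. SCs are the stem cells of skeletal muscle, marked by the transcription factor Pax7, and NF-YA is the part of the NF-Y complex that contacts DNA at the CCAAT box. NF-YAcKO mice (3 libraries) carried floxed Nfya alleles and the tamoxifen-inducible Cre recombinase Pax7-CreERT2. NF-YAfl/fl mice (3 libraries) carried the floxed alleles without Cre, and both genotypes received tamoxifen. The labels give an age of 5-7 weeks, while the methods of the study describe mice of 6 to 8 weeks given 5 daily injections, with muscles taken 7 days after the last one and SCs kept for 4 days in growth medium. The question was how the expression of these genes differed between SC cultures with and without the deletion.

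Potassium channels let potassium leave or enter the cell along its gradient and so set the resting membrane potential and end the action potential. Voltage-gated subunits open on depolarization, inward rectifiers pass current near the resting potential, two-pore-domain channels give background leak, and calcium-activated channels couple the potential to intracellular calcium. Skeletal muscle precursors hyperpolarize before they fuse, with inward rectifiers carrying much of that current, and mature fibers express many of these genes at the surface membrane and in the transverse tubules.

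The total expected counts were 31040863 to 41118984 in NF-YAcKO and 26936230 to 33316730 in NF-YAfl/fl libraries. The entry for the deleted Nfya allele took 22.3% to 34.2% of the Nfya counts in NF-YAcKO and 0 in NF-YAfl/fl libraries. Pax7 was present in all libraries, at 30.9 to 42.8 TPM (a level scaled to transcript length and to one sum per library) in NF-YAcKO and 16.0 to 23.3 TPM in NF-YAfl/fl. The summed level of 8 markers of differentiated muscle was 41.8 to 100.3 TPM in NF-YAcKO against 4245 to 5803 TPM in NF-YAfl/fl, and all 8 were called lower. All 8 macrophage markers were called higher, with sums of 149 to 287 TPM against 3.76 to 14.1 TPM. Of 7 tested Schwann cell markers 4 were called higher and 1 lower, of 6 pericyte and smooth muscle markers 1 was called lower, of 7 endothelial markers 1 was called in each direction, of 7 satellite cell markers 2 were called lower, and of 8 fibro-adipogenic markers 1 was called higher. The X-inactivation transcript Xist was at 45.5 to 54.5 TPM in NF-YAcKO and at most 0.03 TPM in NF-YAfl/fl, while the Y-linked Ddx3y was at most 0.02 TPM in NF-YAcKO and 16.8 to 25.9 TPM in NF-YAfl/fl. The NF-YAcKO libraries thus had the pattern of female and the NF-YAfl/fl libraries that of male mice, although the methods of the study describe injections of males. Sex and genotype cannot be told apart for any gene compared here, autosomal genes included.

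Of the 54 potassium channel genes, 9 were lower and 1 was higher in NF-YAcKO than in NF-YAfl/fl SCs. Among the lower genes were the inward rectifiers Kcnj2 and Kcnj11, the two-pore-domain genes Kcnk13 and Kcnk7, the voltage-gated Kcnc4 and Kcna7, the silent subunit Kcng2 and the calcium-activated Kcnn3. The higher gene was the two-pore-domain channel Kcnk5. A gene was called with a false discovery rate (FDR) under 0.01 over all tested genes and a log2 fold change beyond 1 in size, by edgeR's quasi-likelihood test. The lower calls made up 16.7% of the members, where 7.67% of all tested genes were called lower, and the higher call 1.85%, where 4.65% of all tested genes were called higher. The number of calls depended on which libraries were kept. With any of the 3 NF-YAcKO libraries or NF-YAfl/fl replicate 1 left out, 4 or 5 lower calls remained. There were 10 lower and 3 higher calls without NF-YAfl/fl replicate 2, and 13 lower and 4 higher calls without NF-YAfl/fl replicate 3. Over all tested genes, 1331 lower calls became 643, 523 and 664 without NF-YAcKO replicates 1, 2 and 3 in turn. Kcnj2, Kcnk13 and Kcnn3 were called lower under each of the 16 alternatives run.

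**Figure D1:**
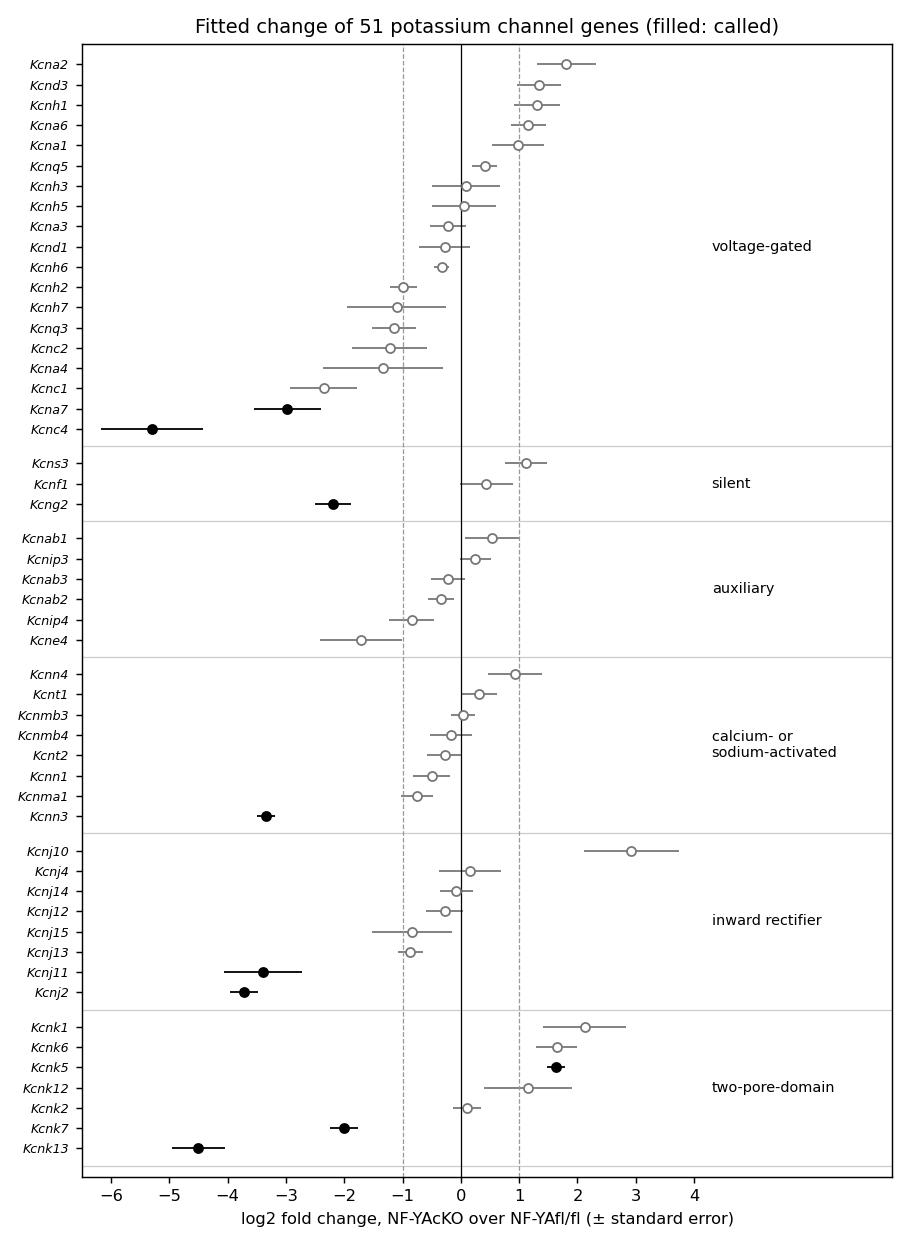
Fitted log2 fold change (NF-YAcKO over NF-YAfl/fl, horizontal axis, with its standard error as a bar) of 51 members, ordered within each role. Filled points are called genes, dashed lines mark a log2 fold change of 1 in either direction, and the 8 lower calls shown lie between -5.29 and -2.00.

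The remaining 44 members were not called. Of these, 12 had an FDR between 0.01 and 0.05, with 7 higher and 5 lower values, and 26 had a larger FDR and a log2 fold change under 1 in size. The other 6 (Kcne4, Kcnk1, Kcnc2, Kcnk12, Kcnh7 and Kcna4) had log2 fold changes of at least 1 in size with FDRs of 0.0515 to 0.341. Among them only Kcnk12 had normalized counts without overlap, higher in NF-YAcKO. Kcnk12 passed the count filter only through the NF-YAcKO libraries, so a higher value there was favored by the filter. Over all members the log2 fold change was below 0 in 32 and above 0 in 22, with a median of -0.25, beside -0.02 over all tested genes. The normalized counts of the NF-YAcKO libraries were all below those of NF-YAfl/fl in 16 members (29.6%) and all above them in 10 (18.5%), where these shares were 26.2% and 29.1% of all tested genes.

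The inward rectifiers included 2 of the lower genes among 8 members, and 0 were called higher, by edgeR and by DESeq2. At an unadjusted p under 0.05, 3 were lower and 1 was higher. Over all tested genes the shares lower by these rules were 7.67%, 10.4% and 24.1%. The shares higher were 4.65%, 5.68% and 24.6%. Kcnj2, which encodes Kir2.1, the main strong inward rectifier of muscle, was at 0.16, 0.11 and 0.18 TPM in the NF-YAcKO libraries and at 2.52, 2.09 and 1.64 TPM in the NF-YAfl/fl libraries. Every NF-YAcKO library lay far below the lowest NF-YAfl/fl library, and the log2 fold change was -3.72 (standard error, SE, 0.25, FDR = 0.000174). Kcnj11, which encodes Kir6.2, the pore of ATP-sensitive channels, was at 0.10, 0.01 and 0.12 TPM against 1.17, 0.80 and 0.47 TPM. These rested on 8, 1 and 13 counts in NF-YAcKO and 79, 58 and 42 counts in NF-YAfl/fl, again without overlap, and gave a log2 fold change of -3.39 (SE 0.67, FDR = 0.00810). The call of Kcnj11 was lost in 8 of 16 alternatives, among them the replicate block (FDR = 0.0152) and leaving out any library but NF-YAfl/fl replicate 3. Beside the fall of both genes stands that of the differentiated muscle markers given above, whose part in it was not tested. In bulk libraries, fewer cells of a type and less RNA per cell cannot be told apart.

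The other inward rectifiers were not called. Kcnj13, which encodes Kir7.1, was at 0.73, 0.81 and 1.06 TPM in NF-YAcKO and 1.55, 2.25 and 1.32 TPM in NF-YAfl/fl, without overlap and with a log2 fold change of -0.86 (FDR = 0.0208). Kcnj12, which encodes Kir2.2, a paralog of Kcnj2, was at 0.79, 1.06 and 1.19 TPM against 1.70, 1.72 and 0.72 TPM. The genotypes overlapped for Kcnj12, and its log2 fold change was -0.28 (SE 0.31, FDR = 0.512). In NF-YAfl/fl the TPM ranges of Kcnj2, Kcnj13 and Kcnj12 overlapped, whereas in NF-YAcKO Kcnj2 lay below the other two in every library. Kcnj10, the Kir4.1 gene known from glia, had 4, 11 and 18 counts in NF-YAcKO and 1, 2 and 0 in NF-YAfl/fl (log2 fold change 2.92, FDR = 0.0282). It passed the count filter only through the NF-YAcKO libraries, so a higher value there was favored by the filter. These few counts give an NF-YAfl/fl to NF-YAcKO ratio of 0.117, with a 95% interval from counting alone of 0.0231 to 0.375. Of 7 tested Schwann cell markers 4, Sox10 and Cdh19 among them, were also higher in NF-YAcKO while 1, Erbb3, was lower. Erbb3 was at 2.14 to 2.84 TPM in NF-YAcKO and 33.9 to 42.1 TPM in NF-YAfl/fl. It made up most of the summed level of the 8 listed markers in NF-YAfl/fl. That sum was 24.3 to 29.1 TPM in NF-YAcKO and 44.7 to 55.3 TPM in NF-YAfl/fl. The part of these markers in the Kcnj10 value was not tested.

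The two-pore-domain genes held calls in both directions, with 2 lower and 1 higher of 7 members by edgeR. By DESeq2 there were 2 lower and 2 higher, and at an unadjusted p under 0.05 there were 2 lower and 3 higher. Over all tested genes the shares lower by these rules were 7.67%, 10.4% and 24.1%. The shares higher were 4.65%, 5.68% and 24.6%. Kcnk13 encodes THIK-1, a leak channel best known from microglia. Its level was 0.19, 0.39 and 0.34 TPM in NF-YAcKO and 6.61, 5.71 and 9.36 TPM in NF-YAfl/fl. No library of one genotype came near the other, and the log2 fold change was -4.50 (SE 0.46, FDR = 0.000827). The macrophage markers were higher and the differentiated muscle markers lower in NF-YAcKO, and their part in the Kcnk13 value was not tested. Kcnk7, whose product gives no current by itself in heterologous cells, was at 0.90, 0.70 and 1.09 TPM against 3.21, 5.26 and 2.83 TPM. It was thus lower in each NF-YAcKO library as well, with a log2 fold change of -2.00 (SE 0.24, FDR = 0.00144), but it was not called without NF-YAcKO replicate 1 or 2.

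Kcnk5, which encodes TASK-2, a leak channel that opens at alkaline pH, was at 4.27, 3.34 and 4.11 TPM in NF-YAcKO and 1.43, 1.69 and 0.93 TPM in NF-YAfl/fl. The NF-YAcKO libraries were all above the NF-YAfl/fl libraries, and the log2 fold change was 1.63 (SE 0.16, FDR = 0.000743). Kcnk6, the TWIK-2 gene, had a like log2 fold change of 1.64 (SE 0.35, FDR = 0.0106) and was not called. It was called higher in 4 of 16 alternatives, among them DESeq2 (FDR = 0.000548) and edgeR with no filter (FDR = 0.00738). Kcnk6 was at 0.75, 0.38 and 0.52 TPM against 0.13, 0.31 and 0.13 TPM. The macrophage marker sums moved in the same direction as Kcnk5 and Kcnk6, and their part in these values was not tested. In each NF-YAfl/fl library Kcnk13 had the highest TPM of the 7 two-pore-domain members, and in each NF-YAcKO library Kcnk5 did.

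**Figure D2:**
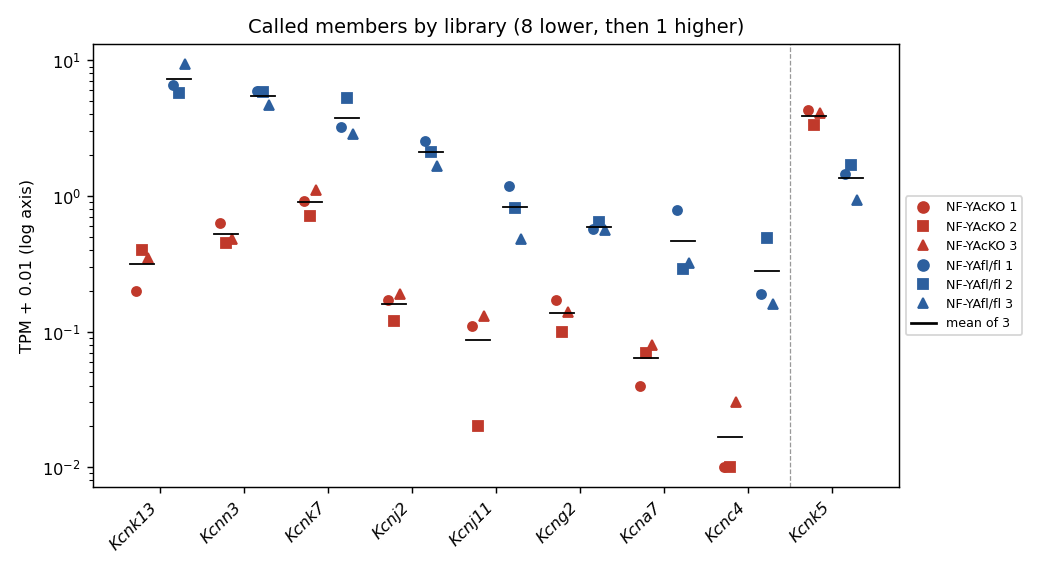
Level of 9 called genes in each library (TPM plus 0.01, log axis), with NF-YAcKO in red, NF-YAfl/fl in blue, a marker shape for each replicate number and a black line for the mean of 3 libraries. The genotypes do not overlap for any of the 9 genes, and Kcnk5, at the right, is higher in NF-YAcKO, at 3.34 to 4.27 TPM.

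Among 22 voltage-gated pore subunits 3 were lower and 0 were called higher by edgeR, beside 8 lower and 4 higher at an unadjusted p under 0.05 and 6 lower and 3 higher (Kcna2, Kcna6 and Kcnh1) by DESeq2. Over all tested genes, 7.67% were called lower and 4.65% higher by edgeR, and 10.4% and 5.68% by DESeq2. At an unadjusted p under 0.05, 24.1% were lower and 24.6% higher. Kcna7, which encodes the muscle-expressed Kv1.7, was at 0.03, 0.06 and 0.07 TPM against 0.78, 0.28 and 0.31 TPM (log2 fold change -2.98, SE 0.57, FDR = 0.00737), without overlap. Kcnc4 encodes Kv3.4, a rapidly inactivating channel of muscle fibers and neurons. It had 0, 0 and 2 counts in NF-YAcKO and 15, 45 and 15 counts in NF-YAfl/fl. Its summed count was 48.5 times higher in NF-YAfl/fl after scaling to library size, with a 95% counting interval from 13 to 407, and the FDR was 0.00431. Kcna7 and Kcnc4 passed the count filter only through the NF-YAfl/fl libraries, so a difference in that direction was favored by the filter. Each of these calls was lost in 8 of 16 alternatives, among them the replicate block and leaving out any NF-YAcKO library or NF-YAfl/fl replicate 1.

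Kcnh6, which encodes the erg-type channel Kv11.2, was at 5.85, 5.19 and 4.89 TPM against 8.76, 10.8 and 5.29 TPM. Its TPM values overlapped while its normalized counts did not, and the log2 fold change was -0.33 (SE 0.13, FDR = 0.0759).

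Values short of the threshold ran in both directions among the other voltage-gated genes. Kcnc1, Kcnh2 and Kcnq3 had log2 fold changes of -2.35, -0.99 and -1.15, with FDRs of 0.0182, 0.0155 and 0.0479. Kcna2, Kcnd3, Kcnh1 and Kcna6 had log2 fold changes of 1.81, 1.33, 1.31 and 1.16, with FDRs of 0.0293, 0.0295, 0.0355 and 0.0233. The former encode Kv3.1, the erg channel Kv11.1 and the M-current subunit Kv7.3, and the latter encode Kv1.2, Kv4.3, the ether-à-go-go channel Kv10.1 and Kv1.6.

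Silent subunits form no channel alone but join other voltage-gated subunits and alter their gating. Kcng2, which encodes Kv6.2, was at 0.16, 0.09 and 0.13 TPM in NF-YAcKO and 0.56, 0.63 and 0.55 TPM in NF-YAfl/fl. The groups did not overlap, and the log2 fold change was -2.19 (SE 0.30, FDR = 0.00230), a call lost when any NF-YAcKO library or NF-YAfl/fl replicate 1 was left out. Kcnf1, which encodes Kv5.1, had the highest mean TPM of the silent subunits, with 18.7, 19.3 and 21.4 TPM against 7.73, 12.7 and 23.5 TPM. Kcnf1 was nearly level in NF-YAcKO and varied between the NF-YAfl/fl libraries, and its log2 fold change of 0.44 (SE 0.45, FDR = 0.475) was within that spread. Kcns3, the Kv9.3 gene, had a log2 fold change of 1.12 (FDR = 0.0486).

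Of 6 auxiliary subunit genes 0 were called by edgeR with all libraries kept and 0 by DESeq2, and 1 was lower at an unadjusted p under 0.05. Kcne4 was the only one called in any alternative. Over all tested genes the shares lower by these rules were 7.67%, 10.4% and 24.1%. Kcnab1, which encodes a cytoplasmic beta subunit of Kv1 channels, was at 6.53, 3.80 and 5.24 TPM in NF-YAcKO and 4.57, 6.41 and 1.13 TPM in NF-YAfl/fl (log2 fold change 0.53, SE 0.46, FDR = 0.397). Kcne4, a single-pass subunit that damps several voltage-gated channels, was at 0.80, 0.45 and 0.55 TPM against 3.02, 3.33 and 0.29 TPM (log2 fold change -1.71, SE 0.70, FDR = 0.0962). In both genes the lowest of the 6 libraries was NF-YAfl/fl replicate 3.

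The calcium- or sodium-activated genes included 1 lower gene among 8 members by edgeR and by DESeq2, and 2 at an unadjusted p under 0.05. None was higher by these rules. Over all tested genes the shares lower were 7.67%, 10.4% and 24.1%. Kcnn3, which encodes the apamin-sensitive small-conductance channel SK3, known from immature and denervated muscle, was at 0.62, 0.44 and 0.47 TPM in NF-YAcKO and 5.91, 5.85 and 4.69 TPM in NF-YAfl/fl. It varied little within either genotype and had the lowest FDR of all members (log2 fold change -3.35, SE 0.15, FDR = 5.72e-05). Kcnn4, which encodes the intermediate-conductance channel found in blood cells and proliferating cells, was at 11.01, 12.9 and 12.9 TPM against 4.95, 15.1 and 2.66 TPM. NF-YAfl/fl replicate 2 lay above all NF-YAcKO libraries and the other two far below them, and the log2 fold change was 0.93 (SE 0.46, FDR = 0.156). Without NF-YAfl/fl replicate 2 the log2 fold change of Kcnn4 was 1.67 (FDR = 0.00505).

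The summed TPM of all members was 99.2, 93.1 and 103.7 in NF-YAcKO and 101.3, 130.7 and 121.4 in NF-YAfl/fl, and these ranges overlapped. The 9 lower genes held 1.99% to 2.41% of it in NF-YAcKO and 17.4% to 23.0% in NF-YAfl/fl, which their selection as lower genes entails. By level, 2 members had a mean of at least 10 TPM, 16 lay between 1 and 10 TPM and 36 lay under 1 TPM. The numbers called lower in these bins were 0, 4 and 5. Calls over all tested genes were not counted by level, so a dependence of the calls on level cannot be read from these numbers.

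**Figure D3:**
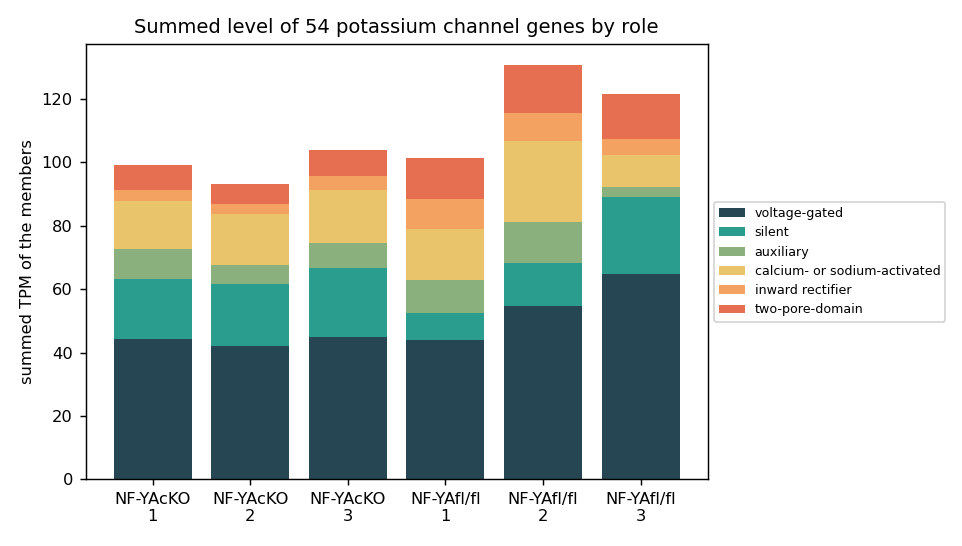
Summed TPM of the 54 members in each library, stacked by role. The whole bars overlap between the genotypes, while the two-pore-domain part is 6.25 to 8.14 TPM in NF-YAcKO and 12.8 to 15.1 TPM in NF-YAfl/fl. The inward rectifier part does not overlap either, at 3.04 to 4.4 TPM in NF-YAcKO and 4.91 to 9.64 TPM in NF-YAfl/fl. Both parts include genes called lower, so neither gap is separate from those calls. In NF-YAfl/fl replicate 3, Kcnj2 alone held 1.64 of the 4.91 TPM of the inward rectifiers. Of the 8 inward rectifiers 6 were not called, and 2 have a log2 fold change above 0. Of the 7 two-pore-domain members, 5 have a log2 fold change above 0, and the 2 below 0 are the genes called lower.

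The 38 genes that did not pass the filter were near the limit of detection, with at most 20 counts in any library. That highest count was of the two-pore-domain gene Kcnk10, which had 20, 10 and 7 counts in NF-YAcKO and 1, 8 and 1 in NF-YAfl/fl. Kcnj8, the Kir6.1 pore of ATP-sensitive channels, had 5, 10 and 12 counts against 4, 4 and 3 counts. Kcnq1 had at most 6 counts in any library. At this depth differences in these genes were not tested.

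Beside the channels, a list of partner genes was examined, most of which encode subunits that can assemble with channels. It also held Kcnrg, a regulator, and Kcnq1ot1, a noncoding antisense RNA that encodes no subunit. Of 12 partners 9 were tested, of which 4 were called lower and 0 higher by edgeR and by DESeq2, with 5 lower, Kcnq1ot1 among them, and 0 higher at an unadjusted p under 0.05. Over all tested genes the shares lower by these rules were 7.67%, 10.4% and 24.1%. Abcc9 encodes the sulfonylurea receptor SUR2, with which Kir6 pores form the ATP-sensitive channel of muscle, and it fell from 12.02, 10.7 and 9.06 TPM in NF-YAfl/fl to 0.22, 0.15 and 0.31 TPM in NF-YAcKO (log2 fold change -5.52, FDR = 5.72e-05). Abcc8, which encodes SUR1, was lower by a log2 fold change of -1.76 (FDR = 0.00464). Dpp6, a partner of Kv4 channels, and Amigo1, an adhesion protein that joins channels in the membrane, had log2 fold changes of -3.20 (FDR = 0.000987) and -1.17 (FDR = 0.00587). The calls of Abcc8 and Amigo1 were each lost in 8 of 16 alternatives, among them the replicate block (FDR = 0.0141 and 0.0104) and leaving out any NF-YAcKO library or NF-YAfl/fl replicate 1, and that of Amigo1 also without NF-YAfl/fl replicate 3. Kcnj11 and Abcc8 are neighbors on chromosome 7, with 3758 bases between them, and Kcnj8 and Abcc9 are neighbors on chromosome 6, with 16247 bases between them. Of the members of these 2 pairs Kcnj11, Abcc8 and Abcc9 were called lower, and Kcnj8 was below the count filter.

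Of 13 other genes of muscle excitability, 6 were called lower and 0 higher by edgeR, and 7 and 0 by DESeq2, with 8 lower and 1 higher at an unadjusted p under 0.05. The shares of all tested genes lower by these rules were again 7.67%, 10.4% and 24.1%. Among the 6 called lower by edgeR were the voltage-gated calcium channel of the transverse tubule Cacna1s (log2 fold change -8.34), the muscle sodium channel Scn4a (-7.47), the sodium pump beta subunit Atp1b2 (-3.47) and the T-type calcium channel Cacna1h (-2.80). The calls of Atp1b2 and Cacna1h were lost when any NF-YAcKO library was left out, and that of Cacna1h also without NF-YAfl/fl replicate 1.

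NF-YAfl/fl replicate 3 stood apart from the other control libraries and decided several values. By normalized counts it was the lowest library in 15 and the highest in 12 of the 54 members. These shares were 26.4% and 27.2% over all tested genes, so this was not particular to the members. NF-YAfl/fl replicate 1 was the highest library in 15 members, beside 13.5% of all tested genes. Kcnj15, which encodes the inward rectifier Kir4.2, was at 1.03 and 1.23 TPM in NF-YAfl/fl replicates 1 and 2 and at 0.07 TPM in replicate 3, beside 0.22 to 0.47 TPM in NF-YAcKO. Kcnc2, the Kv3.2 gene, was at 0.33, 0.37 and 0.04 TPM in NF-YAfl/fl and at 0.07 to 0.14 TPM in NF-YAcKO. In the other direction, Kcnc1 was at 1.58, 1.23 and 3.88 TPM in NF-YAfl/fl, all above the NF-YAcKO libraries (0.40 to 0.52 TPM).

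The fibro-adipogenic markers moved with this library, with a summed level of 138, 221 and 24.0 TPM in NF-YAfl/fl and 89.8 to 120 TPM in NF-YAcKO. Pdgfra was at 22.9, 31.1 and 3.13 TPM in NF-YAfl/fl, and the smooth muscle marker Cnn1 at 31.0, 40.1 and 0.58 TPM. Their part in the channel values was not tested. Without NF-YAfl/fl replicate 3, Kcne4 (log2 fold change -2.22, FDR = 0.000661), Kcnj15 (-1.35, FDR = 0.00455), Kcnc2 (-1.70, FDR = 0.00594) and Kcnc1 (-1.43, FDR = 0.00383) were also called lower and Kcnf1 was called higher (1.20, FDR = 0.00121), as were Kcna1 and Kcna2.

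**Figure D4:**
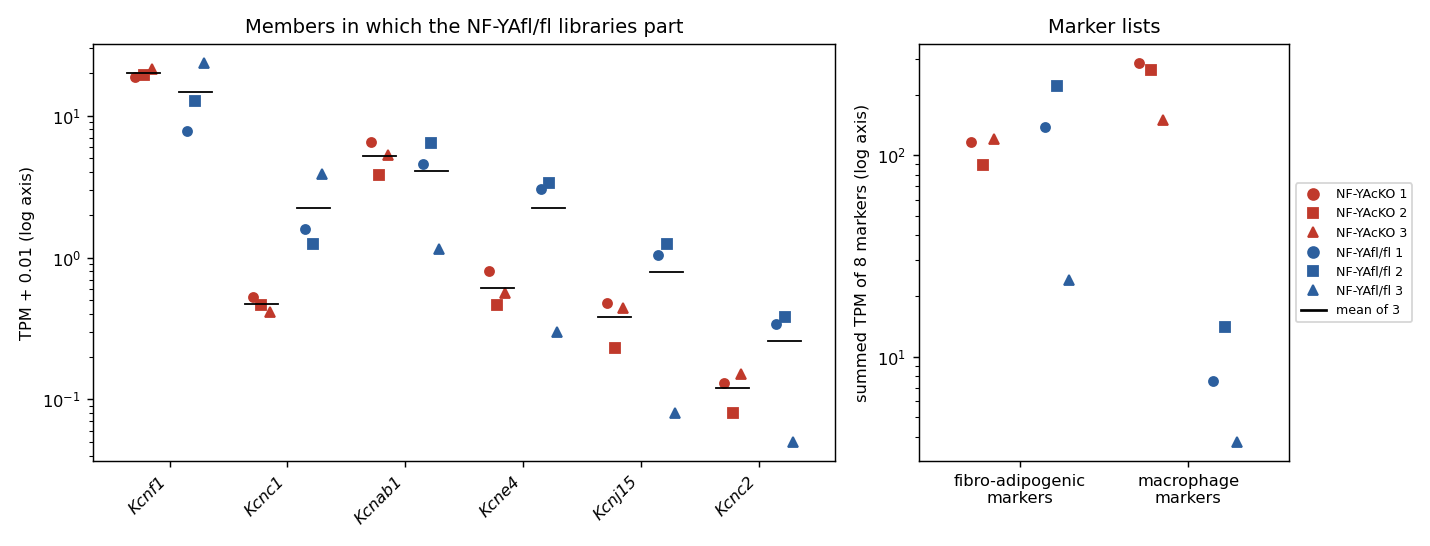
Level of 6 members (left, TPM plus 0.01) and the summed TPM of 8 fibro-adipogenic and 8 macrophage markers (right) in each library, both on log axes, with NF-YAcKO in red, NF-YAfl/fl in blue, a shape for each replicate number and black lines (left) for means of 3 libraries. NF-YAfl/fl replicate 3 (blue triangle) is the lowest of 6 for Kcnab1, Kcne4, Kcnj15, Kcnc2 and the fibro-adipogenic sum, at 24.0 TPM, and the highest for Kcnf1 and Kcnc1.

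Transcript shares, the percent of a gene's TPM that the software assigned to each annotated transcript, were compared for Kcnk13, the called gene that met the criteria of level and transcript number. Its transcripts begin at first exons on chromosome 12 that overlap (99964499 to 99964801 for NM_146037.2 and 99964525 to 99964852 for NM_001164427.1, GRCm38) and encode the same protein. NM_001164427.1 held 0, 0 and 24.4% in NF-YAcKO and 61.8%, 27.3% and 51.7% in NF-YAfl/fl, a difference of -38.8 percentage points in the means. The groups did not overlap, and the exact permutation test, two-sided, gave p = 0.1, the smallest value that 3 against 3 libraries allow. NM_146037.2 held 100%, 100% and 75.6% against 38.3%, 61.5% and 41.5%. In NF-YAcKO these shares rested on 15, 49 and 38 counts of the gene.

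Kcnma1, chosen after its shares were seen and given without a test, showed a transcript difference at a gene level that was not called. Kcnma1 encodes the large-conductance calcium-activated channel BK, whose many splice forms differ in calcium sensitivity, and had 97, 135 and 155 counts in NF-YAcKO and 210, 142 and 138 in NF-YAfl/fl (log2 fold change -0.76, FDR = 0.0694). Its leading transcripts NM_001253370.1 and NM_001253376.1 differ by an exon of 87 bases (29 codons) on chromosome 14, from 23390921 to 23391007 on the minus strand of GRCm38, which 4 of 38 annotated transcripts hold. The sequences that part these forms are the junctions upstream of and across this exon, shown as transcript sequence from the GENCODE annotation (GRCm38) with the bases downstream of the junction in capitals.
Exon joined (chr14:23435950-23435964 with chr14:23390993-23391007, minus strand): gtggctgcaggcggcTCAAGGTTGAAGCTA
Exon skipped (chr14:23435950-23435964 with chr14:23386339-23386353, minus strand): gtggctgcaggcggcTTGAAGATGAGCAGC
Transcripts with the exon were assigned 0, 0 and 0% of the Kcnma1 level in the NF-YAcKO libraries and 68.0%, 68.3% and 51.6% in the NF-YAfl/fl libraries. Transcripts without it held 96.5%, 92.0% and 92.4% against 8.99%, 6.29% and 21.8%, and the rest belonged to transcripts that were not matched to the annotation. Of 54 deposited Kcnma1 transcripts 22 were matched, 3 of them with the exon, so these shares are the software's split of few reads over many similar forms.

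**Figure D5:**
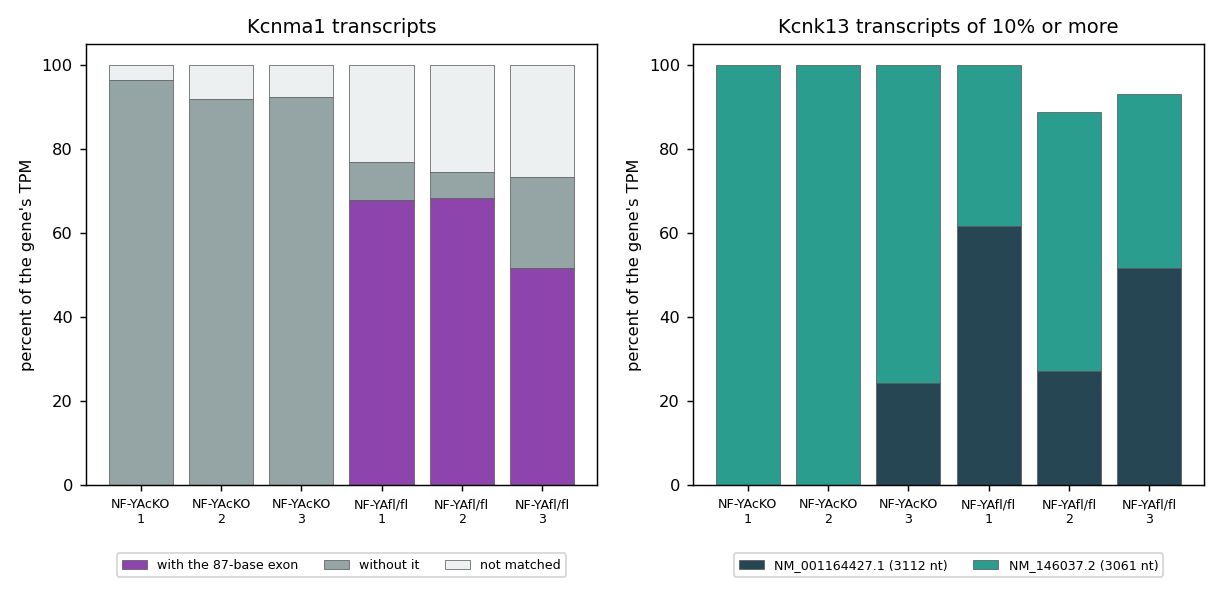
Percent of the TPM of Kcnma1 (left) assigned to transcripts with the 87-base exon, without it or not matched, and of Kcnk13 (right) assigned to its 2 main transcripts, as stacked bars for each library. The part with the exon is 0 in all NF-YAcKO libraries and 51.6% to 68.3% in NF-YAfl/fl libraries.

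The promoters of the called genes were searched for the CCAAT box, the sequence bound by NF-Y, and for CAGCTG, an E-box sequence bound by myogenic factors such as MyoD, on both strands. Windows from 250 bases before to 50 bases after the start site came from RefSeq (GRCm38.p6). CCAAT was present in 37.4% and CAGCTG in 16.3% of all 32851 windows. Only 41 of the 54 members had a window, so a comparison over the members is void. In their 57 windows CCAAT was present in 31.6% and CAGCTG in 24.6%, and of the 6 windows of lower members 2 held CCAAT and 1 held CAGCTG. The windows of Kcnj2 and Kcnn3 hold a CCAAT at nearly the same place, on opposite strands. The motif base farthest upstream lies at -71 and -72 from the start site. The window of Kcnj2 also holds a CAGCTG at -206. These sites were the only matches in the windows of the called members and are shown with the motif in capitals.
Kcnj2 CCAAT, chr11:111066083-111066107, minus strand: ccactgttggCCAATcggagcgcac
Kcnn3 CCAAT, chr3:89520082-89520106, plus strand: ttaagccaagCCAATgaaaccgctg
Kcnj2 CAGCTG, chr11:111065948-111065973, plus strand: ccaggctaggCAGCTGgaggaggtag
The windows of Kcna7, Kcnc4, Kcnk13, Kcnk7 and Kcnk5 hold neither sequence; Kcng2 and Kcnj11 were not searched. A match is a description of the letters and not a measured binding site.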

How the data were processed

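Each library is the RNA of 1 SC culture (3 NF-YAcKO, 3 NF-YAfl/fl), and genotype and replicate number come from the sample labels. Stranded total RNA libraries were made from 500 ng of RNA and read as 75 nt pairs. The authors aligned reads with Bowtie2 to mm10 and quantified them with RSEM (1.3.1), and deposited expected counts without normalization, which split reads shared between transcripts. The deposited TPM are scaled by the authors' software to transcript length and to one sum per library, and the deposited percent of a gene's TPM is given per transcript. For 42 of 54 members the counts were whole in all libraries (tolerance 0.005), and those of 12 members are estimates of a split. What their reads were shared with was not examined. Positions were matched in GENCODE M21 for 54 of 54 members, of which 24 overlap a gene on the other strand and 2 one on the same strand.

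After rounding, a gene was tested if 2 or more libraries had over 10 counts of it (17348 genes), and genotypes were compared with edgeR 4.0.16 (TMM, quasi-likelihood test, Benjamini-Hochberg adjustment) in R 4.3.3, with the call thresholds of the study's methods. The standard error is the log2 fold change divided by the square root of F. Levels are TPM, and p-values measure only the spread between these cultures. With 26936230 to 41118984 counts per library, 3 counts are 0.073 to 0.111 CPM. Counting intervals cover counting error only. On simulated counts with 200 changed genes among 16984, 169 (84.5%) were called with the true sign, and 3 of 16784 genes left unchanged were called. The data gave far more calls, 1331 lower and 806 higher, so the simulated rates do not give the error rates of the calls here. Named genes are the called members, the 2 highest by mean TPM in each role and called genes of the listed partner and excitability genes. Members with an FDR between 0.01 and 0.05, genes below the filter, Kcnj15, Kcnc2, Kcnab1, Kcne4, Kcnma1 and its transcripts were named after values were seen. The results of some genes are not reported here, though counts include them. The members and lists were chosen with earlier results of these data known. The alternatives tried were edgeR with DESeq2 size factors, DESeq2 itself (1.42.0), filterByExpr, no filter, limma 3.58.1 on log2(TPM + 1) and log2(TPM + 0.1), no rounding, an FDR under 0.05, a replicate block, glmTreat (threshold 1 on the log2 scale), and leaving out each library in turn.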

Additional observations from a re-analysis of the deposited data

How the results depend on the processing

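The 9 lower and 1 higher calls among the members became 12 and 5 with DESeq2, 11 and 2 without a filter, 5 and 1 with limma on log2(TPM + 1), 7 and 1 on log2(TPM + 0.1), 12 and 8 at an FDR under 0.05, and 4 and 0 with glmTreat. They stayed 9 and 1 with DESeq2 size factors, filterByExpr (50 members in the fit) and no rounding. Over all tested genes, 1331 lower and 806 higher calls became 704 and 231 with limma on log2(TPM + 1), 361 higher on log2(TPM + 0.1), 2025 lower at an FDR under 0.05, and 510 and 97 with glmTreat. Leaving out 1 library gave 4 to 13 lower and 1 to 4 higher members, and 523 to 1684 lower and 177 to 890 higher genes overall. The causes of these shifts were not tested. With the replicate block 6 lower and 1 higher members were called. Same-numbered libraries come from different mice, and their deviations from the group means correlated at 0.209, -0.103 and 0.0512. Libraries of unlike number correlated at -0.178 to 0.150. With 3 libraries per genotype these values cannot decide whether the numbers mark pairs. The median log2 fold change of the members lay between -0.32 and -0.10 under all alternatives. Another 17 members were called under some alternative. Over the named genes and alternatives, 401 values kept their side of the threshold, 26 passed it newly and 34 no longer passed it. The biological coefficient of variation was 0.310 in NF-YAfl/fl and 0.105 in NF-YAcKO, and 36 members had a mean level under 1 TPM.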
